A study of Arabidopsis thaliana with 26 samples.

Results

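The arrays compared here are the 4 of 26 on which Arabidopsis thaliana T87 cells, a dedifferentiated suspension line grown in light and dark cycles, had received abscisic acid (ABA) together with a second hormone for 3 h. The 2 arrays titled ABA JA were set against the 2 arrays titled ABA SA, where JA is methyl jasmonate and SA is salicylic acid. The comparison asks which JA-specific and SA-specific genes still differ between the hormones when ABA is present. The other groups used were JA, SA, ABA and ethanol at 3 h, with 2 arrays each except 3 for ABA, and ABA+JA, ABA+SA and ethanol at 24 h, with 2 arrays each. Doses in the labels were 25 µM ABA, 100 µM methyl jasmonate, 300 µM SA and 0.6% ethanol for the control. All groups were of the same line. Separate cultures for the replicates are not stated, and p-values therefore refer to variation among these arrays alone, part of which may be technical.

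The labels contradict each other for exactly these 4 arrays. The source name, treatment tag and protocol of the arrays titled ABA JA give ABA with 300 µM SA, and those of the arrays titled ABA SA give ABA with 100 µM methyl jasmonate. Groups follow the titles, a choice made with the levels of hormone marker genes on these arrays already known. The direction of the hormone markers below is therefore not independent evidence for either label. Grouping by source name would turn the sign of every difference between ABA+JA and ABA+SA at 3 h and leave its size and p-value as they are. Comparisons that join these differences to other arrays would also take other sizes and calls. The change of the difference between the hormones with ABA would then pass for 228 probe sets in place of 4, and the change between 3 and 24 h for 700 in place of 67 (limma). Of the JA-specific probe sets defined below 31 would be lower and 0 higher, and of the SA-specific ones 15 would be higher and 0 lower. At 24 h titles and source names name the same treatments.

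Jasmonate is perceived as its isoleucine conjugate by a receptor complex that removes JAZ repressors and releases MYC transcription factors, and it raises genes of defence against herbivores together with enzymes that inactivate the hormone. Salicylic acid acts largely through NPR proteins and TGA transcription factors and is known for defence against biotrophic pathogens. The pathways often restrain each other, and ABA, the hormone of drought and desiccation, can modify both.

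Replicates correlated across probe sets at r = 0.9723 for ABA+JA and r = 0.9783 for ABA+SA. An ABA+JA array and the ABA+SA array of the same number correlated as closely, at r = 0.9763 and 0.9741. Those of different number correlated less closely, at r = 0.9631 and 0.9686. The medians of these 4 arrays lay between 4.89 and 4.98 log2 units, below those of all 22 other arrays, the lowest of which was 5.02. The combined arrays at 3 h thus stood apart from the single-hormone arrays as a group, and the part of this in differences between arrays with and without ABA was not tested. No gene was set as a marker of T87 cells. Of markers of differentiated cells, EXPA7 averaged 3.83 with ABA+JA and 3.76 with ABA+SA, and FMA 4.09 with ABA+JA and 3.86 with ABA+SA. Levels are log2 signals without a detection call, so low levels cannot be told from background. In these bulk samples fewer responding cells and less RNA per cell cannot be told apart.

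Between ABA+JA and ABA+SA at 3 h, 66 of 22746 probe sets were higher and 36 were lower at an adjusted p under 0.05 (limma, Benjamini-Hochberg over all probe sets). These are 0.29% and 0.158% of those tested, 0.448% together. Of the higher ones 53 differed at least 2-fold, and of the lower ones 35. All 102 had arrays that did not overlap between the groups, as had 36.6% of all probe sets, and the median log2 difference over all probe sets was 0.04. Non-overlap was also a condition for naming the called genes with the largest differences, so it is not separate evidence for them. A single gene could be assigned to 36 of the higher and 16 of the lower probe sets, and the rest are counted but not named. Their log2 differences ran from 0.69 to 4.98 among the higher and from -8.55 to -0.97 among the lower, so the lowest of all had no assigned gene. The counts moved with single arrays. They were 33 higher without ABA+SA replicate 2 (58 in all), 29 higher without ABA+SA replicate 1, and 68 lower without ABA+JA replicate 2. None of the 102 changed sign in any setting other than the grouping by source name.

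Most of the higher probe sets were raised by ABA+JA, and most of the lower ones by ABA+SA. Set against ethanol, 64 of the 66 higher probe sets rose in ABA+JA, where 10.3% of all probe sets rose, and 11 rose in ABA+SA, where 6.74% of all did. Of the 36 lower probe sets, 8 rose in ABA+JA and 29 in ABA+SA. The median log2 change from ethanol over the 66 was 1.99 in ABA+JA and 0.01 in ABA+SA, and over the 36 it was 0.18 in ABA+JA and 2.51 in ABA+SA. Both changes share the ethanol arrays. The split follows in part from the choice of the probe sets on the difference between the same groups.

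Enzymes that inactivate jasmonate were among the genes with the largest differences on the JA side, JRG21 first. JRG21 (AT3G55970), AT2G38240 and AT5G05600 encode dioxygenases that hydroxylate jasmonic acid and so remove it from signalling. JRG21 had 10.43 and 11.31 on the ABA+JA arrays and 3.06 and 2.94 on the ABA+SA arrays, with 3.09 and 2.89 on the ethanol arrays. At 3 h the gene was high on the ABA+JA arrays and on those of JA alone, at 11.98 and 11.16, and ABA+SA lay at the level of ethanol. The difference was 7.87 ± 0.48 log2 units (SE of the fit), or 234-fold (limma, adjusted p = 5.62e-08).

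AT2G38240 had 8.84 and 9.42 with ABA+JA and 4.27 and 4.09 with ABA+SA, a difference of 4.96 ± 0.36 (limma, adjusted p = 3.27e-07). AT5G05600 had 8.93 and 8.76 with ABA+JA and 4.31 and 4.11 with ABA+SA, a difference of 4.63 ± 0.43 (limma, adjusted p = 7.59e-06). ABA+SA differed from ethanol by -0.05 for AT2G38240 and -0.21 for AT5G05600. The fourth jasmonate oxidase, AT3G11180, stayed low, with 3.04 and 3.43 for ABA+JA and 3.00 and 3.16 for ABA+SA (adjusted p = 0.965). Another oxygenase of the 2-oxoglutarate-dependent family, AT1G06620, had 6.21 and 6.81 with ABA+JA and 2.96 and 2.81 with ABA+SA. Its groups were far apart, with a difference of 3.62 ± 0.33 (limma, adjusted p = 5.67e-06). The calls of these 4 oxygenases held in each alternative that was run.

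**Figure D1:**
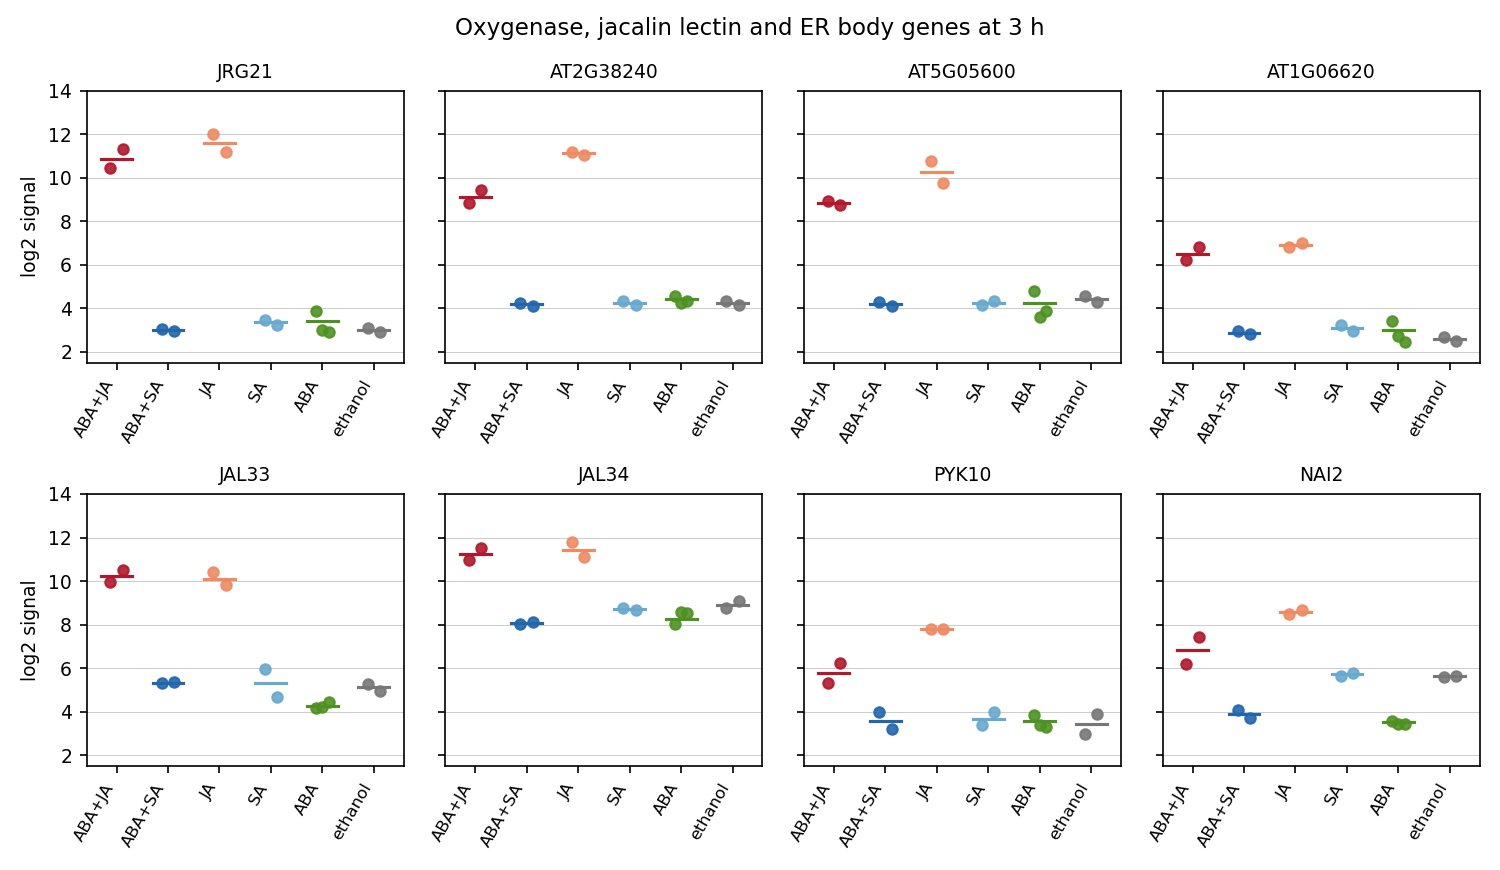
Log2 signal (y axis) of 8 genes on each array at 3 h, by group. Points are arrays and bars are group means (2 arrays per group, 3 for ABA). For the ABA bar, replicates 2 and 3 were averaged first. ABA+JA and JA are high for all 4 oxygenases and for JAL33 and JAL34, and for JRG21 the ABA+JA arrays sit at 10.43 and 11.31 and the ABA+SA arrays at 3.06 and 2.94.

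Jacalin-related lectins were also higher with ABA+JA, while the genes of ER body formation and its beta-glucosidase did not pass the test. ER bodies are endoplasmic reticulum-derived stores of beta-glucosidase, and jacalin-related lectins bind the released enzyme. JAL33 had 9.96 and 10.53 with ABA+JA and 5.32 and 5.36 with ABA+SA. JAL34 had 10.96 and 11.53 with ABA+JA and 8.03 and 8.13 with ABA+SA. Both lectins were higher with ABA+JA, by 4.9 ± 0.57 for JAL33 (limma, adjusted p = 1.50e-04) and by 3.17 ± 0.37 for JAL34 (limma, adjusted p = 1.66e-04).

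The beta-glucosidase itself, PYK10, had 5.34 and 6.24 with ABA+JA and 3.97 and 3.22 with ABA+SA. NAI2, which is needed to form ER bodies, had 6.19 and 7.44 with ABA+JA and 4.07 and 3.72 with ABA+SA. Neither gene's groups overlapped, and neither difference passed the test (2.2 ± 0.78 for PYK10, limma adjusted p = 0.363; 2.92 ± 0.78 for NAI2, limma adjusted p = 0.158). With the spread taken from the 13 arrays at 3 h alone, both passed (limma, adjusted p = 0.0403 for PYK10 and 0.00158 for NAI2). Apart from that fit, both passed only with a replicate block within 8 arrays, chosen after seeing the data. On NAI2 the ABA+SA arrays lay below ethanol, with 5.62 and 5.63, and near ABA alone, with 3.60, 3.44 and 3.43. NAI1, the transcription factor of ER body formation, had 2.85 and 3.05 with ABA+JA and 2.69 and 2.76 with ABA+SA (adjusted p = 0.987).

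Hydrolases, a defensin-like gene and a cell wall gene were also higher with ABA+JA. AT2G39420, an alpha/beta hydrolase, had 7.45 and 6.72 with ABA+JA and 3.79 and 4.21 with ABA+SA, a difference of 3.08 ± 0.37 (limma, adjusted p = 2.04e-04). The ABA+SA arrays lay below both ethanol arrays, which had 5.29 and 5.61. AT3G23570, a hydrolase of the dienelactone hydrolase family, had 10.61 and 10.43 with ABA+JA and 8.20 and 7.96 with ABA+SA, both above the ethanol values of 6.99 and 6.95. Its difference was 2.44 ± 0.33 (limma, adjusted p = 7.81e-04). TBL37, of a family that acetylates wall polysaccharides, had 8.39 and 8.78 with ABA+JA and 5.97 and 6.66 with ABA+SA, a difference of 2.27 ± 0.31 (limma, adjusted p = 7.23e-04).

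AT3G51450, a strictosidine synthase-like gene, had 7.75 and 9.07 with ABA+JA and 4.94 and 5.65 with ABA+SA. AT2G43530, a defensin-like gene, had 10.29 and 11.18 with ABA+JA and 7.96 and 8.56 with ABA+SA. Both were higher with ABA+JA, by 3.11 ± 0.47 for AT3G51450 (limma, adjusted p = 0.00232) and by 2.47 ± 0.38 for AT2G43530 (limma, adjusted p = 0.00256). Both calls ended without ABA+SA replicate 1 (limma, adjusted p = 0.0622 for AT3G51450 and 0.0684 for AT2G43530).

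Some probe sets higher with ABA+JA than with ABA+SA were not called between JA and SA alone. Of the 66 higher probe sets, 32 were also higher in JA than in SA without ABA, where 0.457% of all probe sets were, and 34 were not called there. The median difference over these 34 was 1.1 with ABA and -0.04 without ABA, and for 27 of them the difference without ABA was smaller than 0.5 in either direction. For 29 of the 34 the change of the difference had an unadjusted p under 0.05, and none passed after adjustment. These probe sets were chosen on one of the differences compared, so these values are a description.

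AT1G62760, which encodes a protein of the pectin methylesterase inhibitor family, had 7.74 and 6.17 with ABA+JA and 4.37 and 4.44 with ABA+SA. JA alone left it at 4.39 and 3.99, SA alone at 4.24 and 4.14, ABA alone at 4.49, 4.0 and 3.97, and ethanol at 4.06 and 4.25. It was thus high only on the ABA+JA arrays among those at 3 h. The difference with ABA was 2.55 ± 0.42 (limma, adjusted p = 0.00451) and the change of the difference between JA and SA was 2.55 ± 0.59 (limma, adjusted p = 0.229). The call ended without ABA+JA replicate 1 (limma, adjusted p = 0.0693), ABA+SA replicate 1 (0.0598) or ABA+SA replicate 2 (0.0552).

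AT1G10585, a gene of the bHLH transcription factor family, had 3.94 and 5.3 with ABA+JA and 2.34 and 2.37 with ABA+SA, a difference of 2.27 ± 0.29 (limma, adjusted p = 3.28e-04). Fitted to the 4 combined arrays at 3 h alone, AT1G10585 did not pass (limma, adjusted p = 0.211). JA alone gave 3.59 and 3.21 and SA alone 2.33 and 2.53, which did not overlap either, with ethanol at 2.29 and 2.39. AT2G03980, a GDSL lipase gene, had 7.47 and 7.12 with ABA+JA and 4.62 and 4.69 with ABA+SA. It had 5.86 and 4.09 with JA alone and 3.32 and 3.4 with SA alone, so those arrays did not overlap, and their difference of 1.61 did not pass (limma, adjusted p = 0.184). With ABA the difference of AT2G03980 was 2.64 ± 0.45 (limma, adjusted p = 0.0065), and it missed the threshold without ABA+JA replicate 1 (0.0667), ABA+SA replicate 1 (0.0757) or ABA+SA replicate 2 (0.068). DFR, which encodes dihydroflavonol reductase of anthocyanin synthesis, had 4.95 and 4.96 with ABA+JA and 3.80 and 3.82 with ABA+SA (1.15 ± 0.22, limma, adjusted p = 0.0191). With the 13 arrays at 3 h alone DFR did not pass (limma, adjusted p = 0.123), nor with the 4 combined arrays alone (0.199). The DFR call ended without any one of the 4 arrays: without ABA+JA replicate 1 (limma, adjusted p = 0.0869), ABA+JA replicate 2 (0.0775), ABA+SA replicate 1 (0.149) and ABA+SA replicate 2 (0.152).

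On the SA side the largest difference with a gene name was in AT1G19960, a gene given without a role here. It had 3.22 and 3.05 with ABA+JA and 7.46 and 7.79 with ABA+SA, against 3.61 and 3.44 with ethanol. Of the combinations, ABA+SA lay above ethanol and ABA+JA did not, and SA alone stood at 9.67 and 8.96. The difference was -4.49 ± 0.29 (limma, adjusted p = 7.85e-08). AT5G03350, a legume lectin-like gene induced by SA in Arabidopsis leaves, had 4.14 and 4.16 with ABA+JA and 6.98 and 8.22 with ABA+SA. The ABA+JA arrays lay at the ethanol level of 4.14 and 4.43, and the difference was -3.45 ± 0.39 (limma, adjusted p = 1.05e-04).

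UGT76B1, a glycosyltransferase that conjugates isoleucic acid, SA and N-hydroxypipecolic acid, had 8.04 and 8.91 with ABA+JA and 11.52 and 11.96 with ABA+SA. Both groups lay above ethanol at 5.58 and 5.63 and above ABA alone at 5.34, 6.68 and 6.69. JA alone had left the gene at 5.85 and 6.14. The difference between the combinations was -3.26 ± 0.45 (limma, adjusted p = 8.95e-04). The rise over ethanol was 2.87 ± 0.45 in ABA+JA (limma, adjusted p = 1.91e-04) and 6.14 ± 0.45 in ABA+SA (limma, adjusted p = 1.33e-07). UGT76B1 was thus raised on both pairs of arrays, by less on those titled ABA JA.

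AT1G76360, a receptor-like cytoplasmic kinase gene, had 4.62 and 4.62 with ABA+JA and 6.75 and 6.78 with ABA+SA, a difference of -2.15 ± 0.35 (limma, adjusted p = 0.00423). Without ABA+SA replicate 2 its adjusted p was 0.0581. AT3G02770, of a family related to ribonuclease E inhibitors of bacteria, had 5.92 and 5.81 with ABA+JA and 7.09 and 7.61 with ABA+SA, a difference of -1.49 ± 0.21 (limma, adjusted p = 0.00115). Its ethanol arrays lay in between at 6.94 and 6.42. WRKY53, a transcription factor of SA signalling and senescence, had 4.71 and 5.37 with ABA+JA and 4.73 and 7.44 with ABA+SA. Its ABA+SA arrays were far apart, and the difference of -1.05 ± 1.19 did not pass the test (limma, adjusted p = 0.936).

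**Figure D2:**
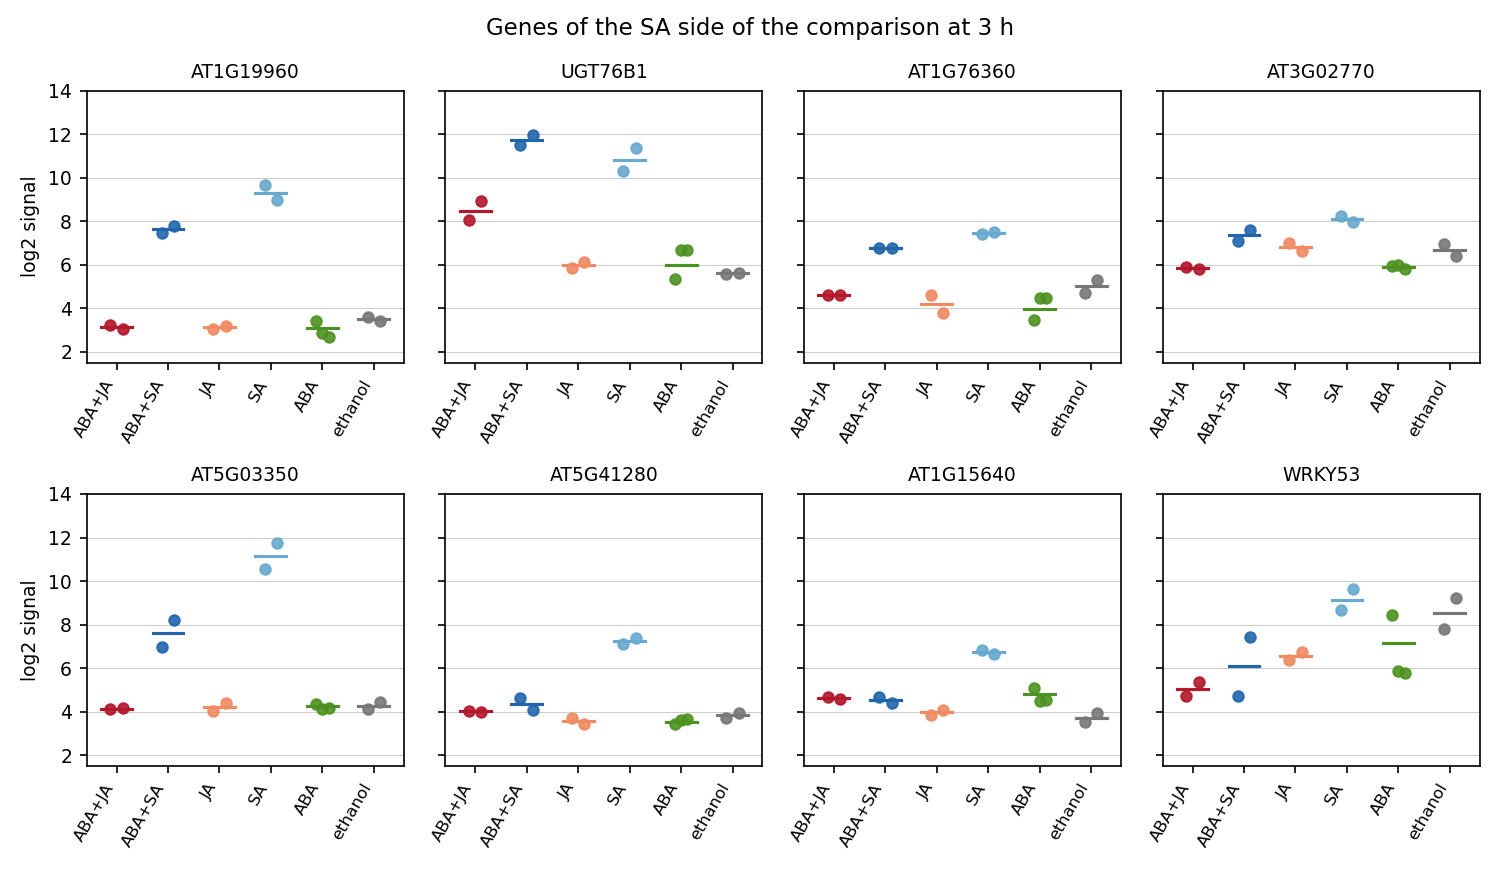
Log2 signal (y axis) of 8 genes on each array at 3 h, by group; points are arrays and bars are group means. In AT1G19960, UGT76B1, AT1G76360 and AT5G03350 the ABA+JA arrays lie below the ABA+SA and SA arrays, while AT5G41280 and AT1G15640 are high with SA alone and low in both combinations.

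Of the 36 lower probe sets, 16 were also lower in JA than in SA without ABA, where 0.185% of all probe sets were, and 20 were not called there. Over these 20 the median difference was -1.46 with ABA and -0.30 without, and 17 had an unadjusted p under 0.05 for the change of the difference. None of the 20 passed after adjustment, and they too were chosen on one of the differences compared. AT5G66670, whose role is not given here, had 3.74 and 3.93 with ABA+JA and 6.43 and 6.0 with ABA+SA, against 3.54 and 3.84 with ethanol and 4.74 and 4.38 with SA alone. It was highest on the ABA+SA arrays, with a difference of -2.38 ± 0.31 (limma, adjusted p = 4.77e-04).

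AT1G47980, annotated as a desiccation-like protein gene, had 5.93 and 6.56 with ABA+JA and 7.99 and 8.08 with ABA+SA, a difference of -1.79 ± 0.27 (limma, adjusted p = 0.00193). Both combinations lay above ethanol at 4.29 and 4.37, and ABA alone gave 5.61, 5.20 and 4.95. AT3G13950, an ankyrin repeat gene, had 4.80 and 4.43 with ABA+JA and 6.75 and 6.18 with ABA+SA, a difference of -1.85 ± 0.29 (limma, adjusted p = 0.0028). Its adjusted p without ABA+SA replicate 1 was 0.0801. For these genes JA and SA alone differed by -0.06 for AT1G47980 and by -0.12 for AT3G13950.

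In some lower genes the ABA+JA arrays lay below ethanol. AT1G61840, which encodes a cysteine- and histidine-rich domain protein, had 2.91 and 4.09 with ABA+JA and 7.10 and 8.43 with ABA+SA, against 6.89 and 8.56 with ethanol. The difference was -4.26 ± 0.64 (limma, adjusted p = 0.00217), with 0.0527 without ABA+JA replicate 1 and 0.0732 without ABA+SA replicate 2. AT2G39210, a transporter-like gene of the major facilitator superfamily, had 4.31 and 5.22 with ABA+JA and 6.51 and 6.89 with ABA+SA, against 9.20 and 8.89 with ethanol. AT2G39210 was lower than in ethanol in both combinations, with changes of -4.28 in ABA+JA (limma, adjusted p = 9.52e-09) and -2.35 in ABA+SA (limma, adjusted p = 7.25e-06). Its difference between the combinations was -1.94 ± 0.25 (limma, adjusted p = 4.50e-04).

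JA-specific probe sets were those higher in JA than in ethanol and than in SA, on arrays without ABA, and SA-specific ones were those higher in SA than in ethanol and than in JA. In the contrasts with ethanol 0.334% of all probe sets were higher with JA and 0.136% with SA. None of the ABA+JA or ABA+SA arrays entered these choices directly, though all arrays share the estimate of the spread. The grouping of those arrays by title was chosen with hormone marker levels known. The direction of the counts below rests on that choice. There were 67 JA-specific probe sets, 28 of them with a single gene, and 26 SA-specific ones, 9 of them with a single gene. With ABA present, 31 of the 67 (46.3%) were higher in ABA+JA than in ABA+SA, against 0.29% of all probe sets, and none was lower. Of the 26, 15 (57.7%) were lower, against 0.158% of all, and none was higher. In each alternative fit that held the JA, SA and ethanol arrays, the sets were chosen anew. Counts from those fits therefore refer to sets that may differ in size. Without ABA+SA replicate 1 the JA-specific count was 20.

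With the arrays grouped by title, nearly all members of both sets kept the direction of their difference. Of the JA-specific probe sets 65 of 67 had the same sign with ABA as without, and 63 had arrays that did not overlap. Of the SA-specific ones 25 of 26 had the same sign, and 25 did not overlap. Over all probe sets 36.6% did not overlap in either direction. The differences were mostly smaller with ABA, for 59 of the 67 and 21 of the 26. The median difference of the JA-specific set was 1.86 with ABA and 3.09 without, and that of the SA-specific set was -1.93 with ABA and -3.29 without. Since the members were chosen for a large difference without ABA, a smaller value on other arrays also follows from the choice, and its part was not tested.

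The 36 JA-specific probe sets that did not pass with ABA had a median difference of 0.90 with ABA and 2.71 without. In 15 of them ABA+JA lay less than 1 log2 unit above ethanol, and in 8 ABA+SA lay at least 1 above ethanol. Of the 31 that passed, ABA+SA lay at least 1 above ethanol in 6, a similar share. Over all 67, ABA+JA lay at least 1 above ethanol in 52 and ABA+SA in 14. Whether these levels account for the calls was not tested. AT5G19110, of the aspartyl protease family, had 5.18 and 5.12 with ABA+JA and 4.56 and 4.29 with ABA+SA, against 7.75 and 9.73 with JA alone and 4.50 and 4.80 with SA alone. Its difference was 0.72 ± 0.56 with ABA (limma, adjusted p = 0.858) and 4.09 without. AT4G22610, of the lipid transfer protein superfamily, had 5.81 and 6.84 with ABA+JA and 4.43 and 4.49 with ABA+SA, with 6.95 and 8.86 for JA alone (1.86 ± 0.70, limma, adjusted p = 0.412). ABA alone had 5.86, 6.62 and 6.56 on this gene, so the ABA+SA arrays lay below ABA alone.

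Of the 11 SA-specific probe sets that did not pass, AT4G14390 and AT3G26550 passed in some alternatives. AT4G14390, an ankyrin repeat gene, had 5.18 and 4.51 with ABA+JA and 6.57 and 6.54 with ABA+SA (-1.71 ± 0.38, limma, adjusted p = 0.0555). AT3G26550, a cysteine- and histidine-rich domain gene, had 3.05 and 3.59 with ABA+JA and 4.78 and 4.72 with ABA+SA (-1.43 ± 0.33, limma, adjusted p = 0.0758). In both the groups were apart. AT4G14390 passed with a trended robust prior (limma, adjusted p = 0.0493) and with a replicate block within 8 arrays (0.0258), and AT3G26550 with the 13 arrays at 3 h (0.0381) and with quantile scaling (0.00972). In the choice of the sets the largest adjusted p inside was 0.0486 for JA and 0.0478 for SA, and the smallest outside was 0.053 for JA and 0.0546 for SA.

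**Figure D3:**
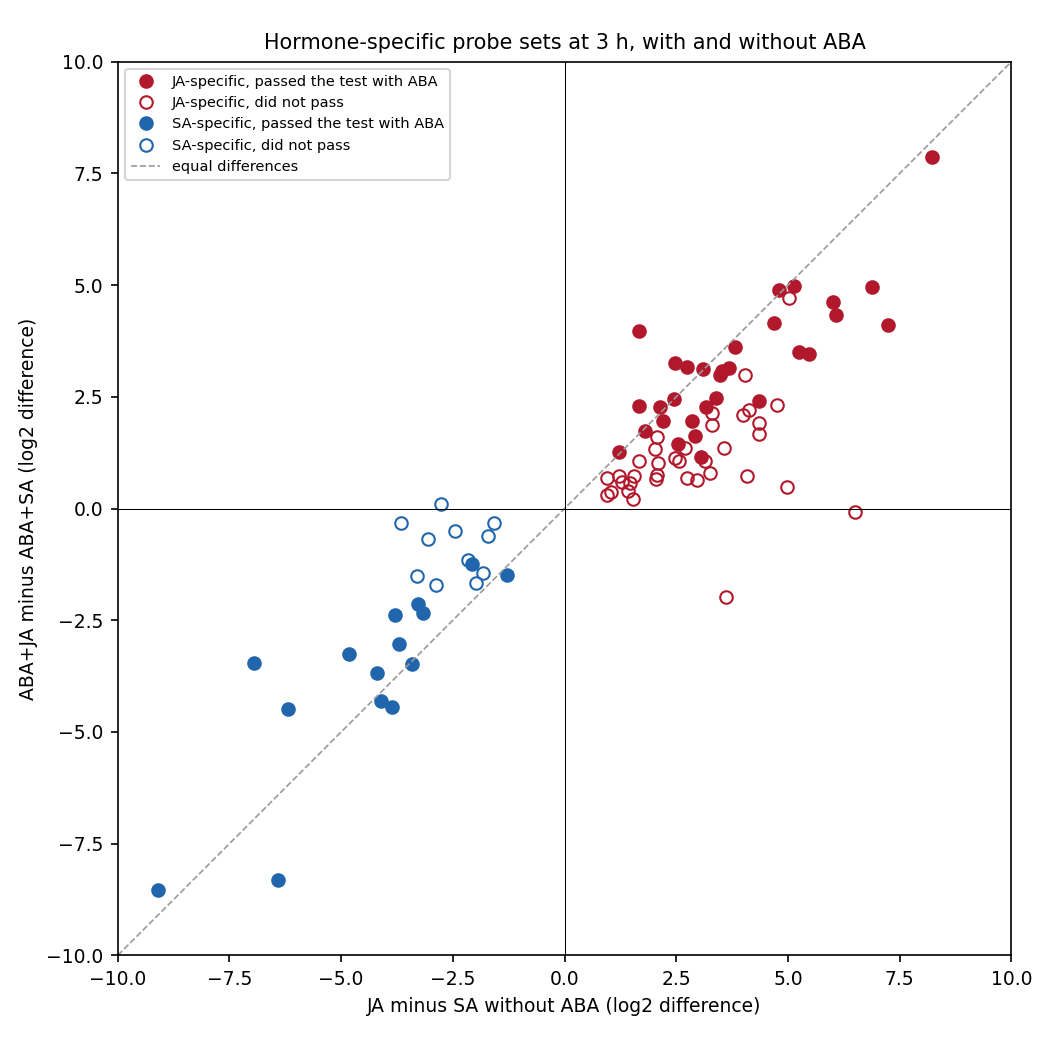
ABA+JA minus ABA+SA (y axis) against JA minus SA (x axis), both in log2 units at 3 h, for the 67 JA-specific (red) and 26 SA-specific (blue) probe sets; filled points passed the test with ABA and the dashed line marks equal differences. The x values were used to choose the points, and 59 red and 21 blue points lie nearer to 0 on the y axis than on the x axis.

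The change of the difference between the hormones when ABA was present, tested directly, passed for 4 probe sets (0.0176%; 1718 had an unadjusted p under 0.05). AT1G15640, whose role is not given here, had 4.66 and 4.60 with ABA+JA and 4.66 and 4.40 with ABA+SA, against 3.86 and 4.10 with JA alone and 6.84 and 6.66 with SA alone. The level of SA alone was not reached on the ABA+SA arrays, which overlapped ABA+JA and lay near ABA alone at 5.08, 4.49 and 4.55. The difference between the hormones changed by 2.86 ± 0.36 (limma, adjusted p = 0.00744), with an adjusted p of at most 0.0483 over the alternatives run.

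AT5G41280, of a family of cysteine-rich secreted proteins, had 4.05 and 3.99 with ABA+JA and 4.63 and 4.07 with ABA+SA, against 3.73 and 3.45 with JA alone and 7.11 and 7.40 with SA alone. The change was 3.34 ± 0.48 (limma, adjusted p = 0.0236). AT5G03350, raised by ABA+SA as given above, stood at 10.58 and 11.74 with SA alone, so that its difference shrank by 3.50 ± 0.55 (limma, adjusted p = 0.0358). The AT5G03350 call did not hold with the 13 arrays at 3 h alone (limma, adjusted p = 0.149) or with array weights (0.0556). It also ended with ABA replicates 2 and 3 averaged (0.0678) or with a replicate block within 8 arrays (0.071). Both calls ended when single arrays were left out. For AT5G41280 these were ABA+JA replicate 1 (limma, adjusted p = 0.0822), ABA+SA replicate 2 (0.152), SA replicate 2 (0.166) and JA replicate 2 (0.129). For AT5G03350 they were ABA+JA replicate 1 (0.094), ABA+SA replicate 1 (0.152), SA replicate 2 (0.166), JA replicate 1 (0.104) and JA replicate 2 (0.129).

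The fourth probe set matches several genes and is not named. It had 13.39 and 13.23 with ABA+JA, 13.26 and 13.52 with ABA+SA, 12.90 and 13.41 with JA alone and 6.4 and 6.9 with SA alone. ABA alone raised it to 13.55, 13.9 and 13.91, against 6.98 and 8.06 with ethanol, so every group but SA and ethanol was near the top of the scale. The difference changed by -6.58 ± 1.01 (limma, adjusted p = 0.0349). With ABA replicates 2 and 3 averaged the change did not pass (limma, adjusted p = 0.0672). The call ended without ABA+JA replicate 1 (0.094), ABA+SA replicate 1 (0.139), ABA+SA replicate 2 (0.152), SA replicate 1 (0.152), SA replicate 2 (0.166) or JA replicate 2 (0.15). The number of such probe sets was 22 without ABA+JA replicate 2, 2 without ABA+SA replicate 1, 12 without JA replicate 1, and 1 without SA replicate 2 or JA replicate 2.

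Of 300 members of 17 gene lists, 57 matched a single-gene probe set, and only these are called measured. Since 8730 of 22746 probe sets had no gene, other members may be on the array without being named. Of the 57, 6 were higher and 2 lower, against 0.29% and 0.158% of all probe sets. Jasmonate turnover held 3 of its 4 measured members higher (the dioxygenases), and the ER body and jacalin list 2 of 7 (both lectins), with a median difference of 2.2 against 0.04 over all probe sets. One of 2 measured SA defence targets (AT5G03350) and 1 of 4 genes of SA conjugation and turnover (UGT76B1) were lower. One of 2 phenylpropanoid and flavonoid genes (DFR) was higher. None of the 4 measured genes of jasmonate biosynthesis, of 19 listed, passed, with differences from -0.10 to 0.18. Nor did any of the 2 measured genes of jasmonate perception and repression, of 21 listed. The response of the unmatched members of these lists is not known from the named genes. MYC4, a transcription factor of jasmonate responses, had 3.34 and 2.88 with ABA+JA and 3.01 and 3.0 with ABA+SA, both below JA alone at 5.0 and 5.56 and ethanol at 4.88 and 5.49. The 4 measured jasmonate defence targets, of 15 listed, lay near the low end of the scale. They averaged between 3.02 and 3.69 with ABA+JA and between 2.84 and 3.70 with ABA+SA. None passed among 3 genes of glucosinolates and camalexin (median 0.57), 1 of tryptophan synthesis (0.61), 2 of SA synthesis and signalling (-0.19), 6 of detoxification (-0.05), 5 of mitosis (0.02), 2 of photosynthesis (-0.32) or 2 of differentiated cell types (0.15). No member of ABA perception and turnover matched a single-gene probe set, so that list was not assessed.

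Of 7 measured ABA target genes, 4 rose over ethanol in ABA+JA, where 10.3% of all probe sets rose, and 6 rose in ABA+SA, where 6.74% did. Both counts share the ethanol arrays. All 7 differences between the combinations were below 0, with a median of -0.72, and none passed (smallest limma adjusted p = 0.439). LEA4-5, a late embryogenesis abundant gene, had 9.05 and 8.00 with ABA+JA and 9.30 and 9.72 with ABA+SA, against 3.91 and 3.33 with ethanol. Its ABA+JA arrays were the lower pair, by -0.98 ± 0.40 (limma, adjusted p = 0.471). COR15B, a cold- and ABA-regulated chloroplast protein gene, had 4.0 and 4.72 with ABA+JA and 5.16 and 6.31 with ABA+SA, and the difference was -1.37 ± 0.53 (limma, adjusted p = 0.439). LTI30, a dehydrin gene, had 10.94 and 11.79 with ABA+JA and 11.18 and 12.06 with ABA+SA, which overlapped.

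**Figure D4:**
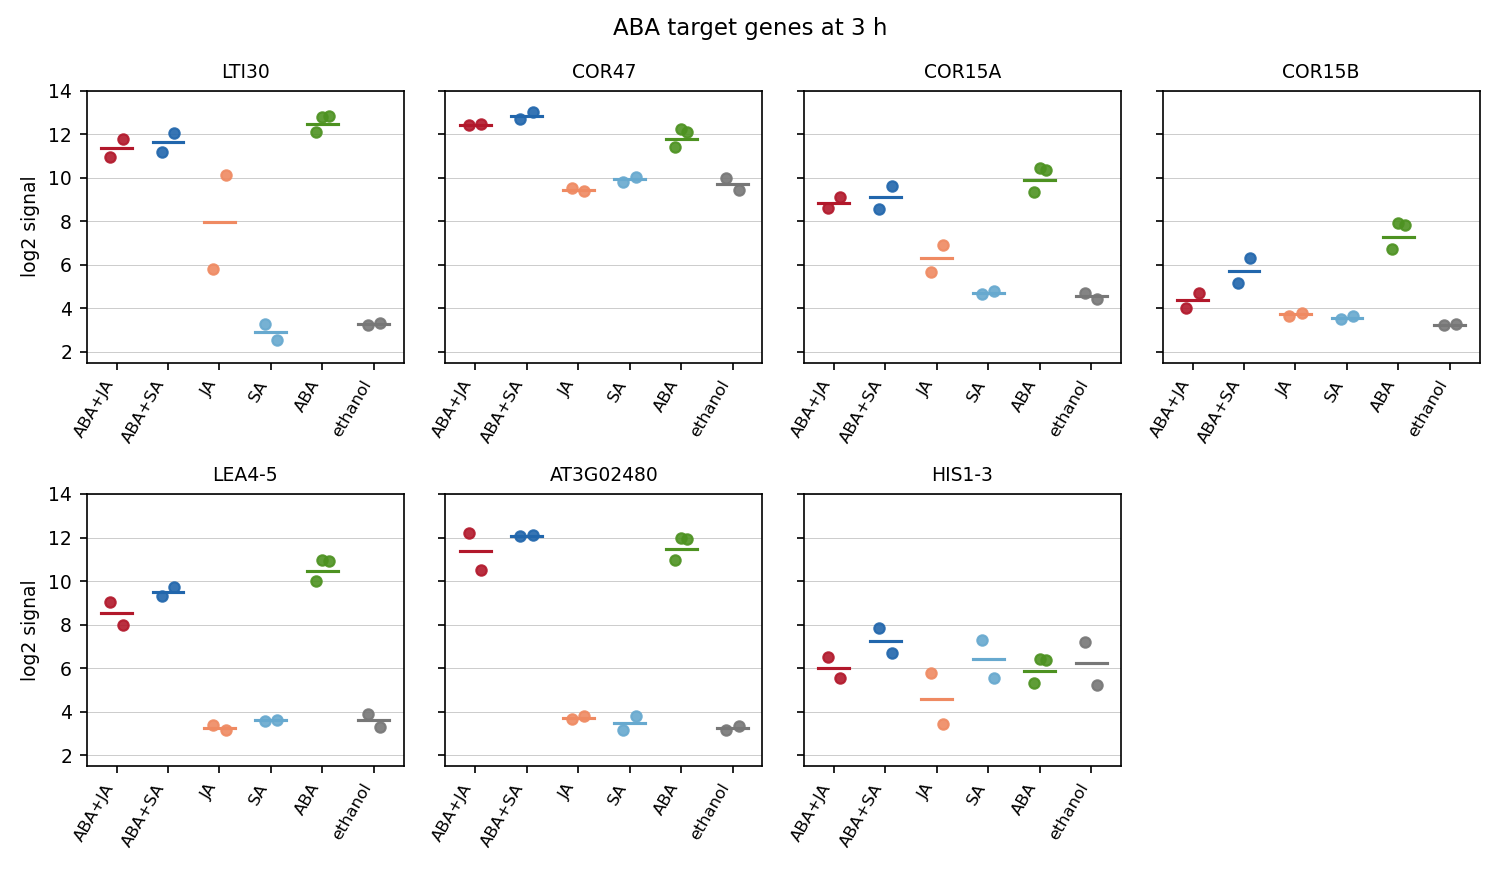
Log2 signal (y axis) of the 7 measured ABA target genes on each array at 3 h, by group; points are arrays and bars are group means. The ABA+JA, ABA+SA and ABA arrays are above ethanol in 6 of the 7 panels, HIS1-3 being the exception, and ABA+JA does not differ from ABA+SA beyond the test's threshold in any.

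At 24 h, on 4 other arrays whose labels do not contradict each other, 342 probe sets were higher and 739 lower in ABA+JA than in ABA+SA (1.5% and 3.25% of all). Of the 66 that were higher at 3 h, 27 were higher at 24 h and none lower. Of the 36 that were lower at 3 h, 24 were lower at 24 h and none higher. Among the 34 probe sets higher at 3 h that were not called between JA and SA alone, 1 was higher at 24 h. Among the 20 lower at 3 h that were not called between JA and SA alone, 8 were lower at 24 h. Of the SA-specific probe sets 25 of 26 were lower at 24 h, including 10 of the 11 that had not passed at 3 h. Of the JA-specific ones 40 of 67 were higher and 1 was lower, and 15 of the 36 that had not passed at 3 h were higher.

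JRG21 had 11.61 and 11.81 with ABA+JA at 24 h and 3.00 and 2.68 with ABA+SA, a difference of 8.87 ± 0.48 (limma, adjusted p = 3.14e-09). UGT76B1 had 5.95 and 5.32 with ABA+JA and 10.59 and 10.77 with ABA+SA at 24 h, so the ABA+JA level was that of ethanol, with 5.19 and 5.33. PYK10 had 9.85 and 12.89 with ABA+JA and 8.40 and 7.46 with ABA+SA at 24 h and passed the test there (3.44 ± 0.78, limma, adjusted p = 0.0169).

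The difference between the times was tested in the same fit, a test added after the values were seen, and passed for 67 probe sets (0.295%). AT1G15640 had 4.15 and 3.77 with ABA+JA and 9.92 and 9.46 with ABA+SA at 24 h, where SA alone at 3 h had given 6.84 and 6.66. Its difference of 0.10 at 3 h and -5.73 at 24 h changed by -5.82 ± 0.36 (limma, adjusted p = 5.05e-08). AT1G19960 reached 11.16 and 10.53 with ABA+SA at 24 h, against 2.96 and 2.45 with ABA+JA, and its difference changed by -3.64 ± 0.40 (limma, adjusted p = 2.21e-04). Both held when each combined array of either time was left out. AT5G41280 had 3.86 and 3.30 with ABA+JA and 5.59 and 7.06 with ABA+SA at 24 h. Its change of -2.41 ± 0.48 (limma, adjusted p = 0.0439) held in 2 of 8 such omissions, those of replicate 1 of ABA+SA and of ABA+JA at 24 h, and ended without any of the other arrays, with an adjusted p of up to 0.186 without ABA+SA replicate 2 at 3 h.

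AT1G10585 was no longer separated at 24 h. Then it had 2.34 and 2.41 with ABA+JA and 2.40 and 2.29 with ABA+SA, and the groups overlapped. Its change of -2.24 ± 0.40 (limma, adjusted p = 0.0229) held in 3 of the 8 omissions. It ended without any ABA+SA array of either time or without ABA+JA replicate 1 at 24 h, with an adjusted p of up to 0.103 without ABA+SA replicate 2 at 3 h.

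**Figure D5:**
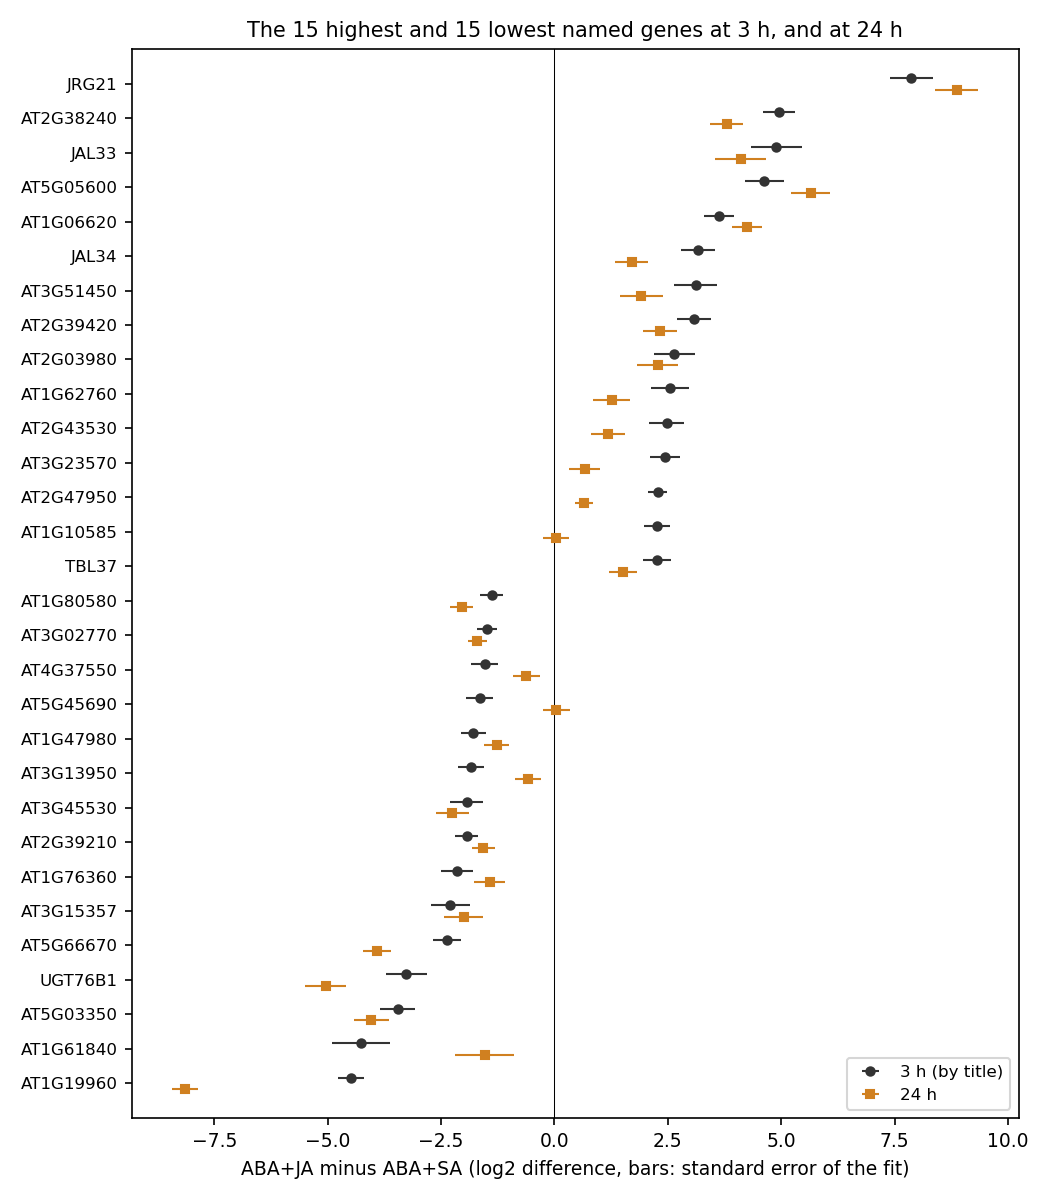
ABA+JA minus ABA+SA in log2 units (x axis) at 3 h (circles) and 24 h (squares) for the 15 highest and 15 lowest named genes at 3 h; bars are standard errors of the fit. The genes were chosen on the 3 h values. JRG21 is the highest at both times (7.87 and 8.87), AT1G19960 reaches -8.14 at 24 h, and AT1G10585 is near 0 at 24 h.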

How the data were processed

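The deposited values are log2 signals, with 1 value for each probe set on each array. The authors obtained them by RMA, per the submitters' processing notes, with the version not given in the sources used here. Genes were named through a platform annotation table and RefSeq symbols. Of 22746 probe sets 13436 matched 1 gene of the table, 77 a gene outside it, 503 several and 8730 none. 

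In limma 3.58.1 under R 4.3.3 a linear model of the 12 title groups was fitted to the 26 arrays together. P-values had a Benjamini-Hochberg adjustment across every probe set, and 0.05 was the threshold for a call. Errors beside differences are standard errors of that fit (14 residual degrees of freedom). ABA replicates 2 and 3 at 3 h were nearly identical. For the ABA means drawn in the figures they were averaged first. In the main fit they were used as deposited, each as a replicate of its own, and they were averaged in an alternative. That alternative called 83 probe sets between ABA+JA and ABA+SA at 3 h in place of 102 (51 higher, 32 lower). It called 28 JA-specific ones, of a set of 61 chosen anew, in place of 31 of 67. 

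Genes named were the 15 highest and 15 lowest called single-gene probe sets with no overlap between groups, up to 5 in each direction for the change with ABA, up to 10 per hormone set, and list members; only part of them are described. Members, lists and the grouping by title were chosen with earlier results of these data known. In simulated data for ABA+JA minus ABA+SA, 200 of 22746 probe sets were changed. Of changes of 1 log2 unit 36% were recovered and of 2 log2 units 81%, with 100% of signs right and 4 false calls. The simulated noise was independent between arrays, unlike the deviations of some same-numbered arrays, so these rates may not carry over. Arrays were not treated as paired by replicate number, since the labels state no shared culture or day and not every pair of groups had deviations correlated above 0.1 (25 of 45 did, from -0.338 to 0.699). Alternatives were smaller fits, a trended robust prior, a replicate block, a filter on dim probe sets, quantile scaling, array weights, leaving out arrays and grouping by source name. Figures were drawn with matplotlib 3.10.9.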

Additional observations from a re-analysis of the deposited data

Results flagged for a closer look

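The difference between JA and SA at 3 h was tested for a change with ABA, and 4 probe sets passed. The change was 2.86 log2 units for AT1G15640, 3.34 for AT5G41280 and 3.50 for AT5G03350, all of which were raised by SA alone and less or not at all by ABA+SA. It was -6.58 for a probe set that matches several genes and was near the top of the scale with ABA+JA, ABA+SA, JA and ABA. Only that of AT1G15640 passed in every alternative run.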

How the results depend on the processing

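No called difference of a named gene turned its sign in any alternative other than the grouping by source name. Of the 30 named genes, 13 kept the call in every alternative, and 18 in all but the fit to the 4 combined arrays at 3 h. That fit called 47 probe sets (26 higher, 21 lower, 33 shared with the 102) and 20 JA-specific ones. It was the only setting that ended the calls of TBL37 (limma, adjusted p = 0.0691), AT1G47980 (0.102), AT3G02770 (0.163), AT2G39210 (0.181) and AT1G10585 (0.211). Leaving out each of the 4 combined arrays gave 58 to 135 probe sets called, 29 to 67 higher and 24 to 68 lower. It gave 20 to 26 JA-specific and 11 to 15 SA-specific calls. The change with ABA passed for 1 to 22 probe sets when single arrays of ABA+JA, ABA+SA, JA or SA were left out. It passed for 8 with quantile scaling, 11 with array weights and 2 with replicates 2 and 3 of ABA averaged. JA minus SA had 220 calls with array weights, against 146 in the main fit. The JA-specific set chosen with array weights held 103 probe sets, against 67. Where 1 array was all that remained of a group, its spread was taken from the other groups, and fits with fewer arrays have fewer degrees of freedom. What moved the counts was not tested in any setting.

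With the replicate number as a block over all arrays, 94 probe sets were called, 87 of them shared with the 102. Same-numbered combined arrays at 3 h deviated together (r = 0.3782) as did those of JA and SA at 3 h (r = 0.504), but those at 24 h did not (r = -0.037). A block within the 8 arrays of both hormones at 3 h, chosen after seeing the data as were the omissions of JA and SA arrays, called 164 (75 lower, 70 shared with the 102) and 323 for JA minus SA. PYK10 and NAI2 passed with it (limma, adjusted p = 0.03 for PYK10 and 0.0059 for NAI2). Grouping by source name, also added after seeing the data, gave 36 probe sets higher and 66 lower, 228 for the change with ABA, 0 JA-specific ones higher and 0 SA-specific ones lower, because the groups change places; the change with ABA was then 2.67 for AT1G15640, 4.0 for AT5G41280 and 10.4 for AT5G03350, and -6.42 for the probe set of several genes. In the simulated data, with 2 arrays in each of the groups compared, changes of 1 log2 unit were often missed.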

Other observations

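Some ABA target genes were not at the ethanol level with JA alone. LTI30 had 5.81 and 10.13 on the JA arrays at 3 h, against 3.26 and 3.33 with ethanol, so that replicate 2 lay near the level of the combined arrays. COR15A had 5.67 and 6.92 with JA alone, against 4.70 and 4.44 with ethanol. Neither passed the test against ethanol (limma, adjusted p = 0.0732 for LTI30 and 0.74 for COR15A). LEA4-5 and AT3G02480 had no such rise, with 3.38 and 3.16 for LEA4-5 and 3.69 and 3.79 for AT3G02480 on the JA arrays.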
